A study of Mus musculus with 6 samples.

Results

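The VEGF and angiopoietin genes were examined in cultured mouse astrocytes with and without JAG1 overexpression. The family is given here by 9 genes: the secreted VEGF ligands VEGFA, VEGFB, VEGFC and PGF, the VEGF receptors FLT1, KDR and FLT4, and the angiopoietins ANGPT1 and ANGPT2. They were found by symbol, which the deposited tables write in capitals, and all 9 had a row among the 23282 gene rows. The genes were chosen by name with their read counts in the control and JAG1 libraries already known, so that their levels, fold changes and calls are given as a description and not as evidence.

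All 6 libraries came from one line of brain astrocytes that lacks Ink4a (Ink4a -/-; Ink4a/Arf-/- in the study's methods), a tumor suppressor locus, grown in medium with serum. The control group was transfected with the empty plasmid pcDNA3.1-puro and is labelled WT for genotype, and the JAG1 group was transfected with pcDNA3.1-JAG1-puro, which carries the NOTCH ligand JAG1; each had 3 libraries. The sources used here do not give whether replicate libraries stem from separate cultures, and p-values then measure only the spread between these libraries, which may be technical. Counts were reads at the 3' ends of polyadenylated RNA and summed to between 14341634 and 20489062 per library. Values are given in CPM, the reads of a gene per 1000000 reads after TMM normalization, a scaling between libraries from edgeR.

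VEGF ligands are secreted proteins that bind receptor tyrosine kinases, mostly on endothelial cells, and drive the growth and leakiness of blood vessels. VEGFA acts mainly through KDR, VEGFB and PGF bind FLT1, and VEGFC acts through FLT4 and is the main growth factor of lymphatic vessels. Angiopoietins bind another endothelial receptor, TEK, which ANGPT1 activates and which ANGPT2 often opposes. Astrocytes are a known source of VEGFA in the brain, where they send signals to the vessels they contact.

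The data show a family that split by member. VEGFC reads were almost absent from the JAG1 libraries, while VEGFB, FLT1, ANGPT1 and ANGPT2 were higher in every JAG1 library than in every control library. VEGFA, the ligand with the most reads in control astrocytes, lay at a similar level in both groups. KDR, the principal VEGFA receptor, and TEK had next to no reads in either group.

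JAG1 itself had 8.99, 10.8 and 11.2 CPM in the control libraries and 15.2, 13.6 and 13.8 CPM in the JAG1 libraries, which is 0.46 on the log2 scale with a standard error (SE) of 0.11 (adjusted p = 0.00446, edgeR). A count at the 3' end does not tell transcripts of the plasmid from those of the cell's own gene, and how far plasmid transcripts enter it was not tested. The astrocyte label was checked against 14 markers, of which GFAP and AQP4 had 0 reads in every library; SOX9, a glial transcription factor, fell from 186, 180 and 177 CPM in control to 18.1, 19.1 and 16.6 CPM in JAG1 libraries (adjusted p = 5.31e-11, edgeR), and VIM was at 3106 ± 221 and 3213 ± 38.3 CPM. The summed level of the 14 markers ran from 3295 to 3780 CPM in control and from 3358 to 3425 CPM in JAG1 libraries, most of it VIM; 7 of 9 tested markers were lower and 0 were higher. Of 17 endothelial markers, 11 had 3 reads or fewer in every library and 7 of them had 0, VWF among them; their summed level was between 4.64 and 6.55 CPM in control and between 7.59 and 8.53 CPM in JAG1 libraries. Of the 3 tested, CD34 rose, from a mean of 2.13 to one of 4.56 CPM, and ESAM and PLVAP had log2 fold changes of −0.27 and −0.22 that did not pass the test. The summed level of 11 pericyte and smooth muscle markers was between 395 and 411 CPM in control and between 67.0 and 74.9 CPM in JAG1 libraries, with RGS5 and CSPG4 at 0. Most of this sum was ACTA2 (means of 310 and 39.5 CPM) and PDGFRB (82.2 and 26.1 CPM). Of 5 tested pericyte markers, 4 fell and TAGLN did not pass (3.42 and 3.29 CPM). The summed level of 7 fibroblast markers was between 426 and 474 CPM in control and between 254 and 293 CPM in JAG1 libraries. The fibroblast markers did not move together, as COL1A2 rose from a mean of 3.35 to one of 50.7 CPM while COL1A1, COL3A1, DCN and FBLN1 fell. The summed levels of lymphatic markers (105 to 113 against 154 to 162 CPM, nearly all of it PDPN), microglial markers (3.40 to 4.35 against 1.79 to 2.61), oligodendrocyte markers (2.14 to 3.27 against 0.668 to 1.20) and neuron markers (109 to 117 against 63.3 to 66.6) also differed between the groups. Of 4 tested neuron markers, 3 fell, TUBB3 from a mean of 78.2 to 8.40 CPM, and MAP2 rose from 25.1 to 51.3 CPM. Of 2 tested microglial markers, TMEM119 fell from 2.24 to 0.103 CPM and CX3CR1 rose from 0.713 to 1.26 CPM. The part of these cell type markers in the results below was not tested, and in bulk RNA fewer cells of a type cannot be told apart from less RNA per cell.

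Of the 9 genes, 6 had enough reads to be tested with all other genes, and PGF, KDR and FLT4 did not. In the comparison of JAG1 with control libraries over 11712 tested genes, 55.1% passed an adjusted p of 0.05 in edgeR's quasi-likelihood test, 27.4% higher and 27.7% lower. Of the family genes tested, 4 were called higher (VEGFB, FLT1, ANGPT1 and ANGPT2), 1 was called lower (VEGFC) and VEGFA was not called. The libraries of the groups did not overlap for the 5 called genes, as for 62.0% of all tested genes. Since the contrast was known when the genes were chosen, nothing is read from these counts. The median log2 fold change was 0.85 over the 6 tested family genes, also with VEGFC at its limit, and 0.00 over all tested genes.

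**Figure D1:**
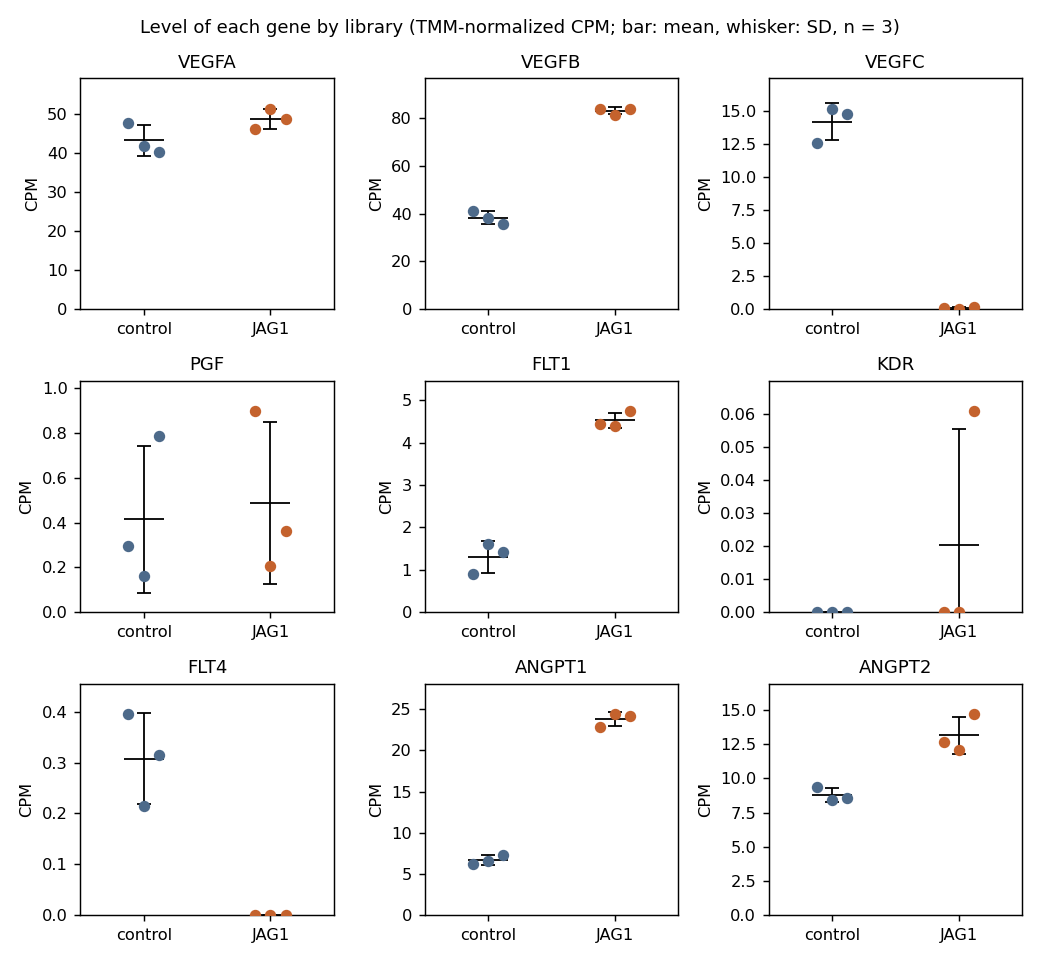
Level of each of the 9 genes in CPM (vertical axis, a separate linear scale from 0 for each gene) in the 3 control and 3 JAG1 libraries; points are libraries, the bar is the mean and the whisker the SD. VEGFC falls from a mean of 14.2 CPM to near 0, VEGFB, FLT1, ANGPT1 and ANGPT2 are higher in all JAG1 libraries, and PGF, KDR and FLT4 stay below 1 CPM in every library.

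The upstream sequences of the 3 genes with the clearest shifts for which RefSeq gives a promoter window are shown first, since VEGFC on one side and VEGFB and FLT1 on the other went in opposite directions from promoters of a similar make-up. Each is the 250 bases before the RefSeq start site (build GRCm38.p6), 5′ to 3′ on the strand of the gene, with every CpG in capitals. VEGFC is at chr8:54077282-54077531 on the plus strand, VEGFB at chr19:6987652-6987901 on the minus strand and FLT1 at chr5:147726012-147726261 on the minus strand.
VEGFC: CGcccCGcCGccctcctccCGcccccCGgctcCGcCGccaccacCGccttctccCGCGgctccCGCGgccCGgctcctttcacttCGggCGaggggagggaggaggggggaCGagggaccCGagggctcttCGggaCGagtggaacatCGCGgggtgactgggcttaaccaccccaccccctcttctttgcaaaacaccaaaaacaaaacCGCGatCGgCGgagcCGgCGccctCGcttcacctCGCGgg
VEGFB: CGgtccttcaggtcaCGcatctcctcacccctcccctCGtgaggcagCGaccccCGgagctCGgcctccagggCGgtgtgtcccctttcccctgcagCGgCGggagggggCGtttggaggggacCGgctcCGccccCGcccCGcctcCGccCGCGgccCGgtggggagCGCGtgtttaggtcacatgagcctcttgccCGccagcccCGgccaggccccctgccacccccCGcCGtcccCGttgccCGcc
FLT1: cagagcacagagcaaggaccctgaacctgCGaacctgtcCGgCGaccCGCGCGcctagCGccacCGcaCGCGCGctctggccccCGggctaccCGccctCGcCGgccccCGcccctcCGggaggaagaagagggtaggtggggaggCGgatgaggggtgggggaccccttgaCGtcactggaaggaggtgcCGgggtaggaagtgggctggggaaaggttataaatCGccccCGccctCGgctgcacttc

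These windows were rich in CpG. VEGFC had 30 CpG and 71.6% G and C, VEGFB had 26 CpG and 76.4%, and FLT1 had 23 CpG and 70.4%. Over the 32851 RefSeq promoter windows of the same length the median was 6 CpG, with quartiles at 2 and 16, and 52.4% G and C. A promoter window was given for 7 of the 9 genes, and in their first windows the CpG count ran from 11 for VEGFA to 30 for VEGFC. KDR and FLT4, with next to no reads, had 16 CpG each, and PGF had 20. Letters of 4 motifs were searched on both strands. The E-box, CANNTG, the motif that TWIST1 and other helix-loop-helix factors bind, was found in 66.2% of all windows, once each in the first windows of VEGFB, PGF, KDR and FLT4 and not in those of VEGFC or FLT1. The SMAD box, CAGAC, was found in 42.2% of all windows and in none of those of VEGFB, VEGFC and FLT1; VEGFA had 2 in its first window. The core of the RBPJ site, TGGGAA, through which NOTCH acts, was found in 21.6% of all windows, with 2 matches in each window of VEGFA and 1 in that of KDR. The core of the hypoxia response element, ACGTG, was found in 16.6% of all windows and once in the second window of VEGFA, at a start site inside the gene. The windows of VEGFC and FLT1 held none of the 4 motifs. These are matches of letters in short windows and do not show binding.

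VEGFC, the ligand of lymphatic growth, showed the largest shift of the 6 tested family genes. The gene lies at chr8:54077606-54187096 (GRCm38, GENCODE M21), with at most 7 exons in a transcript. It had 256, 283 and 283 reads in the control libraries and 2, 0 and 3 reads in the JAG1 libraries. In CPM these were 12.6, 15.2 and 14.8 against 0.0997, 0 and 0.182, a mean of 14.2 ± 1.38 (SD, n = 3) against 0.0940 ± 0.0912 (SD, n = 3). Every JAG1 library lay at or under 3 reads, the limit taken for detection, which over the 6 libraries equals 0.148 to 0.206 CPM. With 3 reads taken as the ceiling, VEGFC was at least 68.9-fold lower. That ceiling is a setting and not an interval. Counting error around the 3 reads of JAG1 replicate 3 could make the fold smaller. Of 7030 tested genes with at least the lowest control CPM of VEGFC in every control library, 5 had 3 reads or fewer in every JAG1 library. Beside VEGFC these were SYT7, EIF4E3, ST8SIA2 and GM14085, and this count was chosen after the values were seen. The fitted log2 fold change of VEGFC had rank 53 from the lowest among all tested genes.

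FLT4, the receptor through which VEGFC acts, was near the limit of detection. It had 8, 4 and 6 reads in the control libraries and 0 reads in each JAG1 library. The groups did not overlap, but the control level of 0.308 ± 0.0903 CPM (SD, n = 3) leaves only a lower bound of 1.49-fold on the difference. KDR had 1 read in all, in JAG1 replicate 3, so that no fold can be given at this depth.

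VEGFB, a ligand of FLT1, had 41.2, 38.0 and 35.8 CPM in the control libraries and 84.1, 81.4 and 84.0 CPM in the JAG1 libraries. The JAG1 values were thus close together and all about 2-fold above the control values, with a log2 fold change of 1.12 (SE 0.07). VEGFA had 47.8, 41.9 and 40.3 CPM in control and 46.3, 51.5 and 48.8 CPM in JAG1 libraries. These ranges overlapped, and the log2 fold change of VEGFA was 0.17 (SE 0.08), the smallest of the 6 tested family genes. PGF, another ligand of FLT1, had 6, 3 and 15 reads in control and 18, 3 and 6 reads in JAG1 libraries, a spread within each group as wide as that between them.

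FLT1, a VEGF receptor that also exists as a secreted form binding free ligand, was the one receptor of the 3 with more than 8 reads in a library. It had 18, 30 and 27 reads in the control libraries and 89, 64 and 78 reads in the JAG1 libraries, or 1.30 ± 0.373 against 4.53 ± 0.184 CPM (SD, n = 3 each). Its log2 fold change was 1.80 (SE 0.22), on counts low enough that leaving out 1 library at a time moved it between 1.58 and 1.98. Gene counts do not separate the secreted from the membrane-bound form.

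Both angiopoietins were higher in the JAG1 libraries, ANGPT1 by more than ANGPT2. ANGPT1, the activating ligand of TEK, had 6.22, 6.50 and 7.32 CPM in control and 22.9, 24.4 and 24.2 CPM in JAG1 libraries, a log2 fold change of 1.83 (SE 0.10). ANGPT2 had 9.38, 8.43 and 8.58 CPM in control and 12.7, 12.1 and 14.7 CPM in JAG1 libraries, a log2 fold change of 0.58 (SE 0.11). Both groups were apart for both genes. ANGPT2 lies inside an intron of MCPH1, on the opposite strand, and none of its exons meets one of MCPH1. An antisense gene, Gm17473, meets 2 exons of ANGPT1. Since the strand setting of the counting is not given in the sources used here, reads from these partners could not be separated. MCPH1 went from 28.1 ± 0.511 to 35.6 ± 2.16 CPM (SD, n = 3 each), a log2 fold change of 0.34 (SE 0.07, adjusted p = 0.00249, edgeR).

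In control astrocytes the order of levels was VEGFA, VEGFB, VEGFC, ANGPT2, ANGPT1, FLT1, PGF, FLT4 and KDR. The libraries of VEGFA and VEGFB overlapped, as did those of PGF and FLT4. In JAG1 astrocytes the order was VEGFB, VEGFA, ANGPT1, ANGPT2, FLT1 and PGF, with no overlap between neighbours, followed by VEGFC, KDR and FLT4 at or under the limit of detection. In this 3' method the reads of a gene do not grow with the length of its transcript, so that CPM stood in for a level per transcript, but how well each 3' end is primed can differ between genes.

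Beside the pairs with VEGFC, the order of VEGFB and VEGFA and that of ANGPT1 and ANGPT2 turned over between the groups, and this can be seen within each library, where no scaling between libraries enters. These ratios were chosen after the values were seen. The ratio of VEGFB to VEGFA reads was 0.861, 0.907 and 0.890 in control and 1.82, 1.58 and 1.72 in JAG1 libraries. Intervals of these ratios were derived from the 95% Wilson interval of the share. That of control replicate 2 reached 1.00, and the intervals of the 3 JAG1 libraries began at 1.44 or above. The ratio of ANGPT1 to ANGPT2 reads was 0.663, 0.771 and 0.854 in control and 1.80, 2.01 and 1.65 in JAG1 libraries. ANGPT2 thus had the larger number of reads in all 3 control libraries, although the interval of control replicate 3, from 0.682 to 1.07, included equal numbers, and ANGPT1 had the larger number in all 3 JAG1 libraries.

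Among the reads of the 4 VEGF ligands, the share of VEGFC went from 12.4%, 15.9% and 16.1% in the control libraries to 0.0759%, 0% and 0.137% in the JAG1 libraries. The 0 of 1934 ligand reads in JAG1 replicate 2 allows a share of up to 0.198% by the upper bound of its 95% Wilson interval. VEGFB made up 39.8% ± 0.662 (SD, n = 3) of the ligand reads in control and 62.7% ± 1.45 (SD, n = 3) in JAG1 astrocytes. The share of VEGFA was lower, 36.8% ± 1.75 (SD, n = 3) against 44.9% ± 1.71 (SD, n = 3) in control, although its CPM was not. PGF stayed under 1% in each library. Intervals cover counting error only, as reads are not independent molecules.

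**Figure D2:**
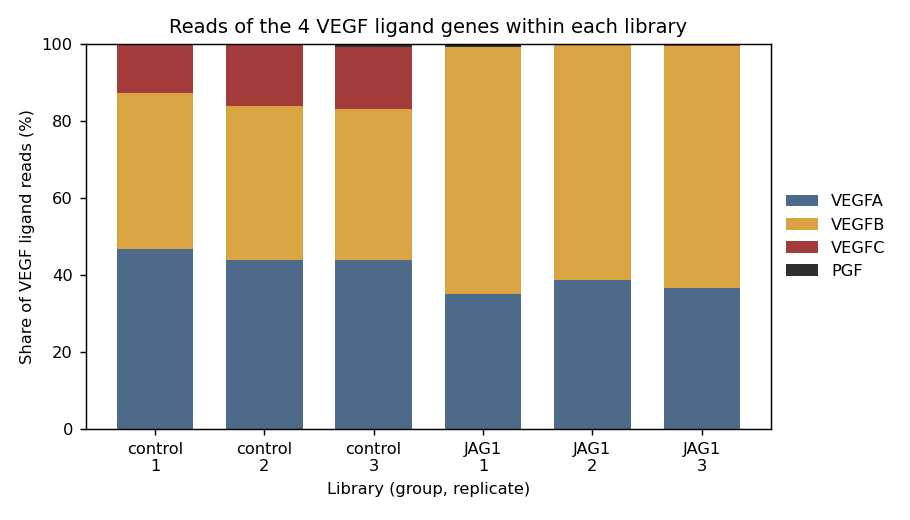
Stacked bars of the reads of VEGFA, VEGFB, VEGFC and PGF as a percent of their sum (vertical axis) in each of the 6 libraries (horizontal axis). VEGFC holds 12.4% to 16.1% in the control libraries and is not visible in the JAG1 libraries, where VEGFB holds 61.2% to 64.0%.

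VEGFC and ANGPT2 share chromosome 8 and FLT1 and KDR chromosome 5, and the other family genes lie on a chromosome each. The chromosomes of VEGFB and ANGPT1 had medians away from 0. On chromosome 19, which holds VEGFB at chr19:6982473-6987651, the median log2 fold change of 422 tested genes was 0.61, with 313 called higher and 31 lower. Of the 10 tested genes nearest to VEGFB, 5 on each side, 9 were higher and 0 lower, with a median of 0.74. FKBP2, a prolyl isomerase gene next to VEGFB, had a log2 fold change of 1.03 (SE 0.08, adjusted p = 1.29e-06, edgeR), near that of VEGFB, and NUDT22, on the other side, had one of 0.07 (SE 0.13). VEGFB stood 0.51 above the median of its chromosome on the log2 scale and had rank 52 from the highest on it. ANGPT1, at chr15:42424723-42676977, went the other way from its surroundings. The median of the 459 tested genes of chromosome 15 was −0.53, with 346 called lower and 32 higher. Of the 10 neighbours of ANGPT1, 6 were lower and 2 higher. ANGPT1 stood 2.37 above that median and had rank 6 from the highest on the chromosome. The neighbours that were higher were ZFPM2, a cofactor of GATA factors, with a log2 fold change of 5.10 (SE 0.30, adjusted p = 9.21e-08, edgeR), and RIMS2, a synaptic scaffold gene, with 1.77 (SE 0.23, adjusted p = 6.08e-05). The part of the chromosome-wide shifts in the values of VEGFB and ANGPT1 was not tested.

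The 10 neighbours of VEGFC stayed far from its level of loss. Their log2 fold changes ran from −1.75, that of the adhesion gene TENM3, to 0.61, with 2 higher, 3 lower and a median of 0.04. For FLT1, 3 neighbours were higher and 3 lower (median 0.00), for ANGPT2, 4 were higher and 1 lower (median −0.03), and for VEGFA, 1 was higher and 1 lower (median −0.05). Over all 9 genes, 31 of 90 neighbours were higher and 21 lower, or 57.8% called, near the 55.1% of all tested genes.

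**Figure D3:**
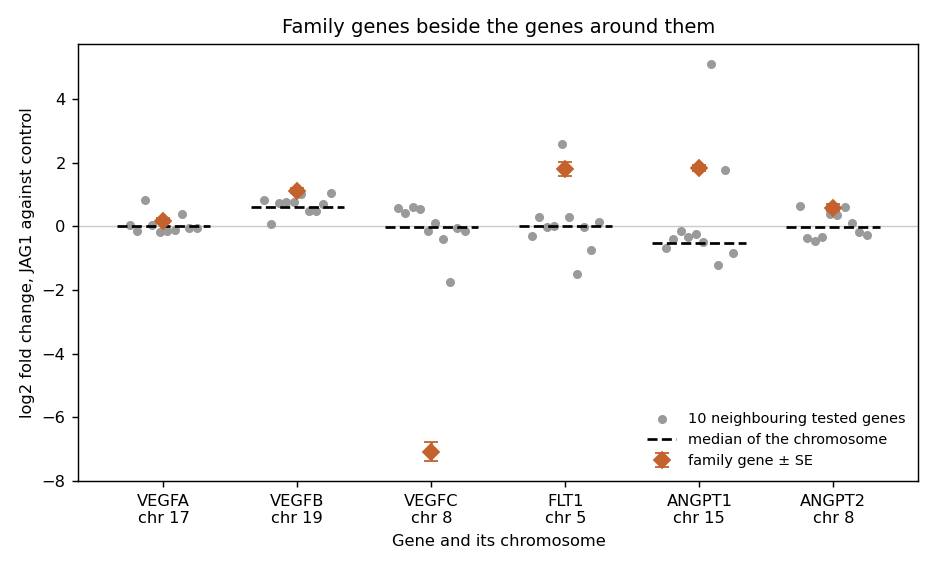
Log2 fold change of JAG1 against control (vertical axis) for the 6 tested family genes (diamonds with standard errors), their 10 nearest tested genes (grey points) and the median of their chromosome (dashed line). VEGFC lies far below its neighbours, VEGFB lies among neighbours that are themselves raised, and ANGPT1 lies above a chromosome with a median of −0.53; the diamond of VEGFC is a fitted value, for which the data give only a bound.

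By likeness of level in all 6 libraries, measured as the Euclidean distance of log2 CPM, the genes closest to VEGFC were PTK7, TBKBP1 and EMB, at distances of 0.970, 1.10 and 1.20. The closest to VEGFB were BMP4 (0.257), RASA3 (0.288) and SLC25A12 (0.379), and the closest to ANGPT1 were VGLL3 (0.428), PACS1 (0.442) and SERPINB8 (0.446). FLT1 was closest to PEG12 (0.413), H2-M3 (0.432) and GHR (0.659), ANGPT2 to PROS1 (0.136), 0610011F06RIK (0.227) and HEMK1 (0.229), and VEGFA to DDAH1 (0.115), FUBP3 (0.185) and 5730455P16RIK (0.204). These are descriptions of level over 6 libraries.

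The other ligands and receptors of the 2 systems were 7 genes, of which 4 could be tested. NRP1 and NRP2, co-receptors of VEGF and of semaphorins, had more reads than any of the 9 genes in the control libraries, and both fell. NRP1 had 151, 156 and 162 CPM in control and 101, 105 and 90.7 CPM in JAG1 libraries, a log2 fold change of −0.66 (SE 0.06, adjusted p = 5.34e-06, edgeR). NRP2 went from 287 ± 3.33 to 214 ± 11.4 CPM (SD, n = 3 each), a log2 fold change of −0.42 (SE 0.05, adjusted p = 3.97e-05). FIGF, the older symbol of VEGFD and another ligand of FLT4, also fell, from 9.13 ± 0.216 to 6.52 ± 0.701 CPM (SD, n = 3 each), a log2 fold change of −0.48 (SE 0.12, adjusted p = 0.00563). PTPRB, a receptor phosphatase that acts on TEK, rose from 1.76 ± 0.157 to 4.77 ± 0.594 CPM (SD, n = 3 each), a log2 fold change of 1.44 (SE 0.18, adjusted p = 4.87e-05). TEK, its relative TIE1 and the ligand ANGPT4 had 0 reads in every library, which allows up to 3 reads, or 0.148 to 0.206 CPM.

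The genes that process or release VEGF ligands held another gene with almost no reads left in the JAG1 libraries. CCBE1, a secreted protein needed to activate VEGFC, had 126, 119 and 151 reads in control and 3, 0 and 2 reads in JAG1 libraries. With 3 reads taken as the ceiling, CCBE1 was at least 33.1-fold lower (adjusted p = 1.10e-07 from edgeR). Counting error could make this fold smaller. ADAMTS3, the protease that CCBE1 brings to VEGFC, had 0 reads in every library. Its relative ADAMTS14 rose, from 4.18 ± 0.731 to 6.63 ± 0.414 CPM (SD, n = 3 each), with a log2 fold change of 0.67 (SE 0.16, adjusted p = 0.00366). PLAU, the urokinase plasminogen activator, fell by 2.84 on the log2 scale (SE 0.24, adjusted p = 2.26e-06), whereas PLAT, the tissue plasminogen activator, rose by 0.93 (SE 0.15, adjusted p = 2.70e-04). CTSD, a lysosomal protease, fell by 0.42 (SE 0.05, adjusted p = 3.20e-05). FURIN, a proprotein convertase, had a log2 fold change of 0.21 (SE 0.08, adjusted p = 0.0378), but its groups overlapped and the call was lost when any of 5 of the 6 libraries was left out, control replicate 1 being the exception, with a log2 fold change of 0.12 without control replicate 3. It was also lost with upper quartile scaling (adjusted p = 0.0715). In all, 3 of the 7 tested genes of the 12 rose and 3 fell, with a median log2 fold change of 0.05.

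Genes that act on VEGFA went in both directions. Of 17 genes of oxygen sensing, transcription, splicing and RNA stability, 15 were tested, 9 rose and 5 fell, with a median log2 fold change of 0.27. EGLN3, an oxygen-sensing prolyl hydroxylase, had 256, 238 and 198 reads in control and 6, 3 and 3 reads in JAG1 libraries, a log2 fold change of −5.63 (SE 0.23, adjusted p = 5.86e-09, edgeR). PPARGC1A, a coactivator of VEGFA, had 2 reads in each control library and 66, 33 and 62 reads in the JAG1 libraries. With 3 reads taken as the ceiling in control, PPARGC1A was at least 19.3-fold higher (adjusted p = 1.47e-06, edgeR). Counting error could make this fold smaller. STAT3, a transcription factor, rose by 0.88 on the log2 scale (SE 0.08, adjusted p = 2.92e-06), and HIF1AN, which inhibits HIF1A and lies on chromosome 19, by 0.76 (SE 0.07, adjusted p = 5.09e-06). ZFP36L1, which destabilizes VEGFA RNA, fell by 0.63 (SE 0.06, adjusted p = 5.09e-06). Its relative ZFP36 had a log2 fold change of −0.39 (SE 0.15, adjusted p = 0.0494), and this call was lost when any library other than control replicate 1 was left out, with a log2 fold change of −0.23 without control replicate 3. By DESeq2 the adjusted p was 0.0683, with library size alone 0.0633 and by limma-voom 0.0720.

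The genes commonly induced through HIF, the hypoxia factor that also induces VEGFA, went in both directions. Of 20 listed genes, CA9 matched no row under this symbol, and no other symbol was tried for it. ADM and ENO1 had too few reads, and 8 of 17 tested rose and 5 fell, with a median of 0.28. ENO1 had 0, 1 and 0 reads in control and 0 reads in each JAG1 library. Whether this reflects its RNA level or the counting was not tested. PDK1, a kinase that holds back pyruvate oxidation, rose by 3.24 on the log2 scale (SE 0.24, adjusted p = 6.53e-07, edgeR). LDHA, lactate dehydrogenase, rose by 1.08 (SE 0.05, adjusted p = 7.04e-09), from 402 ± 9.20 to 853 ± 10.9 CPM (SD, n = 3 each), and BNIP3, a mitophagy gene, by 0.97 (SE 0.10, adjusted p = 7.31e-06). LDHA has near-identical pseudogene copies, and its count is uncertain to that extent. LOX, which crosslinks collagen, fell by 3.24 (SE 0.06, adjusted p = 2.27e-11). NDRG1 fell by 2.31 (SE 0.07, adjusted p = 4.37e-10) and lies on chromosome 15, where the median was −0.53, and PFKFB3, a regulator of glycolysis, fell by 1.05 (SE 0.21, adjusted p = 0.00134).

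Among 50 signaling proteins downstream of the VEGF receptors and TEK, 44 were tested, 17 rose, 13 fell and 14 did not pass, with a median log2 fold change of 0.11. The adaptor GAB1 rose by 1.32 (SE 0.25, adjusted p = 0.00110, edgeR), the transcription factor FOXO1 by 0.75 (SE 0.13, adjusted p = 3.97e-04) and the kinase AKT1 by 0.70 (SE 0.06, adjusted p = 1.81e-06). The phosphoinositide kinase subunit PIK3R2 fell by 1.58 (SE 0.09, adjusted p = 1.06e-07), the kinase FYN by 1.39 (SE 0.15, adjusted p = 1.29e-05) and the adaptor NCK2 by 1.28 (SE 0.13, adjusted p = 1.10e-05).

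Of 18 genes listed as secreted inhibitors of angiogenesis, 12 were tested, 2 rose and 8 fell, with a median log2 fold change of −0.44. VASH2 is among those that fell, although it is reported to promote vessel growth, unlike its relative VASH1. SERPINF1, which encodes the inhibitor PEDF, went from 20.8 ± 1.54 to 1.30 ± 0.201 CPM (SD, n = 3 each), a log2 fold change of −3.98 (SE 0.14, adjusted p = 2.16e-09, edgeR). VASH2 fell by 1.65 (SE 0.10, adjusted p = 1.18e-07). COL18A1, whose collagen yields endostatin, fell by 1.01 (SE 0.17, adjusted p = 3.44e-04). ADAMTS1, a protease that binds VEGFA, rose from 22.9 ± 1.48 to 73.9 ± 3.14 CPM (SD, n = 3 each), a log2 fold change of 1.69 (SE 0.07, adjusted p = 8.37e-09). COL4A1 had a log2 fold change of 0.18 (SE 0.06, adjusted p = 0.0196), a call lost without control replicate 2 (0.16) and without JAG1 replicate 1 (0.14).

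Angiopoietin-like proteins share the fold of angiopoietins but do not bind TEK. Of 6 genes, ANGPTL2 and ANGPTL6 were tested and both fell. ANGPTL2, at 233 ± 2.97 and 180 ± 1.83 CPM (SD, n = 3 each), had a log2 fold change of −0.37 (SE 0.05, adjusted p = 4.10e-05, edgeR), and ANGPTL6 had one of −0.78 (SE 0.16, adjusted p = 0.00140). These lists were chosen with results of these data known, and with 55.1% of all tested genes called in either direction, a list with many called genes is not set apart by its count.

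**Figure D4:**
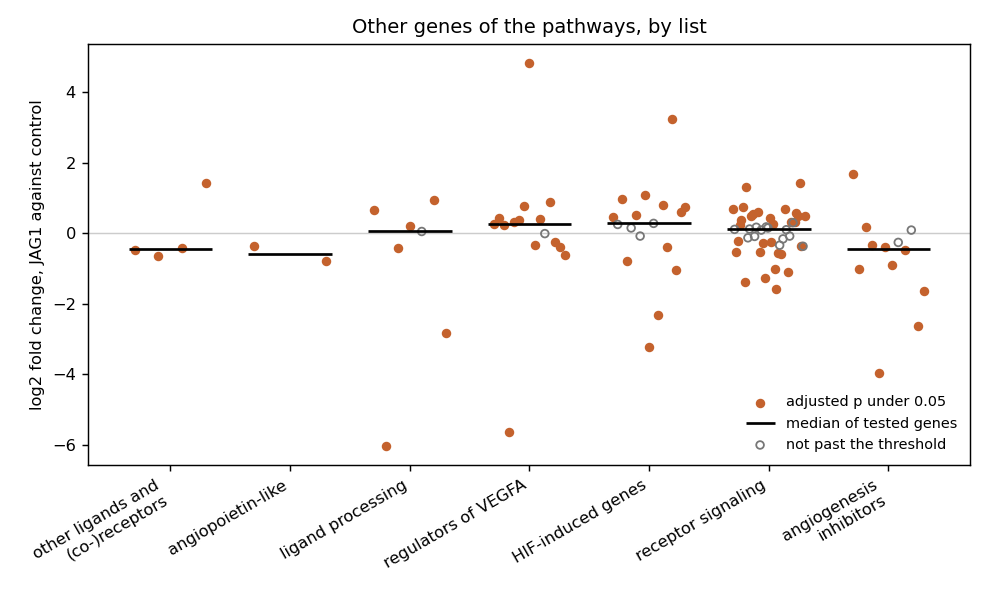
Log2 fold change of JAG1 against control (vertical axis) for each tested gene of the 7 lists (horizontal axis); filled points passed an adjusted p of 0.05, open points did not, and the bar is the median. The 2 lowest points are CCBE1 among the ligand processing genes and EGLN3 among the regulators of VEGFA, and the highest is PPARGC1A; the points of CCBE1 and PPARGC1A are fitted values, for which the data give only bounds.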

How the data were processed

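RNA of Ink4a -/- mouse astrocytes (6 libraries) was sequenced with the QuantSeq 3' mRNA kit. The authors deposited 1 table per library with raw read counts per gene symbol and normalized counts on a log2 scale, of which the counts were used and the log2 values were not. The submitters' processing notes name Bowtie2, bedtools, edgeR and the builds GRCm38 and mm10; the annotation and strand setting are not given in the sources used here. Symbols were matched to RefSeq of GRCm38.p6 (22059 by symbol, 1072 by synonym, 151 not matched), and coordinates were taken from GENCODE M21, on the same build.

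Counts were analysed in R 4.3.3 with edgeR 4.0.16: filterByExpr (minimum count 10), TMM, the quasi-likelihood test on the 2 groups, and Benjamini-Hochberg adjustment over 11712 genes with a threshold of 0.05. Standard errors were derived from the F statistic. The test was also run on simulated data in which few genes were changed. In the real data 55.1% of tested genes were called, so that run does not vouch for calls under so broad a shift. A count of 3 per library was taken as the limit of detection. The family and the lists were chosen with earlier results of these data known. Named genes were the family, JAG1, the remaining ligands and receptors, and per list the 3 largest rises and falls among called genes whose mean reached 1 CPM, the 3 genes nearest in level to each family gene, neighbours where a result turns on them, and defining cell type markers. The alternatives were DESeq2 1.42.0, library size alone, upper quartile, 2 other filters, a replicate block, limma-voom (limma 3.58.1), a 2-fold limit, 10 neighbours on each side, and leaving out each library.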

Additional observations from a re-analysis of the deposited data

How the results depend on the processing

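The 6 tested family genes kept their direction under every alternative run. Of 78 alternative values of their log2 fold changes, 77 moved by less than 1 SD between replicates. With all 6 libraries kept, this held for 42 values. The other 35 left out 1 library, which with 3 per group can hardly move a mean by 1 SD, so that they show little. The exception was VEGFC, at −7.78 without JAG1 replicate 3, where 2 JAG1 reads remain. VEGFA passed the threshold under 1 alternative, without control replicate 1 (log2 fold change 0.25). Leaving out 1 library gave 4 to 5 family genes called higher and 1 called lower, and without the filter 2 were called lower, FLT4 being added. With at least 2-fold, 639 genes were higher and 994 lower over all genes, and of the family 3 were higher, ANGPT2 being lost, and 1 lower. Among the regulators of VEGFA, 3 genes fell by DESeq2 and 3 with library size alone, and 3 to 4 with 1 library left out; the inhibitors that rose were 1 to 2. The share of neighbours called ran from 53.3% to 64.4%. The replicate numbers were not shown to pair the libraries: the deviations of same-numbered libraries correlated at 0.148, 0.0614 and 0.119, although each library correlated best with its own number, a hint from the data. With the replicate block, 3380 genes were higher and 3331 lower, and 4 family genes were called higher and 1 lower. PGF, KDR and FLT4 are limited by depth, at 18 reads or fewer in every library.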
